A study of Mus musculus with 36 samples.

Results

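Cerebellar granule cells, the small excitatory neurons of the cerebellar cortex, arise late and pass through a fixed order of stages. Progenitors divide under Sonic hedgehog at the outer surface of the cerebellum, then leave the cycle, send out parallel fibres, migrate inward along Bergmann glia and mature in the internal granular layer, where mossy fibres excite them. The 33 genes described here mark that lineage from progenitor to mature cell. They were taken by name, by a rule that uses no measured value, but with earlier results of these data known. Of these, 13 belong to identity and proliferation, 8 to differentiation and migration, 5 to the immature neuron (Sox4, Sox11, Dcx, Cntn2, Nhlh1), 2 are expressed late (Reln, Adcy1) and 5 mark the mature granule cell (Cbln1, Cbln3, Fat2, Chn2, Etv1). The arrays named 18194 genes in all. Each member was read by its probe set with the highest mean over the cerebellum arrays, and the change was taken as log2 of -/- minus +/+ in each line.

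Total RNA was measured on 36 one-colour mouse arrays, 18 of cerebellum and 18 of forebrain. In each tissue there were 3 arrays of each of stg-/-, stg+/+, tg-/-, tg+/+, lh-/- and lh+/+ mice, so each mutant group had the +/+ group of its own line beside it. The symbols are read as stargazer, tottering and lethargic, mouse mutants with ataxia and absence seizures whose mutations lie in Cacng2, Cacna1a and Cacnb4, since the labels give the symbols alone. No treatment was given, and the labels state neither age nor strain. The Cacng2 product carries AMPA receptors to the granule cell surface, Cacna1a encodes the pore of the P/Q-type calcium channel and Cacnb4 an auxiliary subunit of such channels. All 3 mutations are carried by every cell of the animal, so a change in whole cerebellum is not confined to granule cells by design. In bulk tissue, fewer cells of a type and less RNA per cell cannot be told apart.

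Array quality and labels were checked once for the series. The mean correlation of a cerebellum array with the other cerebellum arrays ran from 0.951 to 0.964 across probe sets, with stg-/- replicate 3 lowest. Cacng2 had signals of 4.59, 4.72 and 2.43 in stg-/- cerebellum, against 473, 841 and 595 in stg+/+, and was 436 or higher on the tg and lh arrays. Cacnb4 averaged 1375 ± 116 in lh-/- cerebellum and 2121 ± 417 in lh+/+ (SD, n = 3 each), a log2 change of -0.61 that did not pass (limma adjusted p = 0.0814), and its change in stg was -0.40. In forebrain it had 656, 591 and 656 in lh-/-, against 1216, 1371 and 1456 in lh+/+, and passed (-1.08, adjusted p = 0.0285). Cacna1a averaged 354 ± 73.5 in tg-/- and 335 ± 131 in tg+/+ cerebellum, and the level of a transcript with a missense change checks no label. Xist and Eif2s3y read the same sexes in the -/- and +/+ cerebellum groups of each line. In stg replicates 1 and 2 read as female and replicate 3 as male. In lh replicates 1 and 2 read as male and replicate 3 as female, and all tg arrays read as male. Leaving out replicate 3 of a stg or lh group thus leaves 1 sex in it, and lines differ in sex.

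Of the 33 members, 32 had a probe set naming 1 gene. Etv1, a transcription factor of maturing granule cells, was the exception, because its 3 probe sets each named 2 symbols, and it has no value here. Atoh1, the factor that founds the lineage, and Nhlh1, a transient factor of newly born neurons, stayed below the filter on low values, with mean cerebellum signals of 14.1 and 13.4. The other 30 were tested, and 24 of them had more than 1 tested probe set. A member was called at an adjusted p of 0.05 over all 27022 probe sets.

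Upstream stretches are shown for some members that changed or nearly passed in stg cerebellum, in both directions. E-boxes are marked because Neurod1, Neurod2, Atoh1 and Nhlh1 are themselves factors of the basic helix-loop-helix family, which bind them. Sox4, Mycn and Astn1 rose there, Adcy1 fell, and Neurod1 was lower but missed the threshold by its main probe set. En2 and Tiam1, which fell too, are not shown, since they were not among the 20 members with 1 start. Each line gives the 250 bases before the RefSeq start, 5′ to 3′ on the gene's strand, from build GRCm38.p6, with each E-box (CANNTG, which reads the same on both strands) in capitals.
Sox4, chr13:28953700-28953949, minus strand: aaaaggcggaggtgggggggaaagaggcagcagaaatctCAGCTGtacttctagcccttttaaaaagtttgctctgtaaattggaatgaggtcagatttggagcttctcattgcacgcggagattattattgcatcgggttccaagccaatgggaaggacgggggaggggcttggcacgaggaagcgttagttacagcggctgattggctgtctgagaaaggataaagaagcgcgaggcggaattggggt
Mycn, chr12:12941837-12942086, minus strand: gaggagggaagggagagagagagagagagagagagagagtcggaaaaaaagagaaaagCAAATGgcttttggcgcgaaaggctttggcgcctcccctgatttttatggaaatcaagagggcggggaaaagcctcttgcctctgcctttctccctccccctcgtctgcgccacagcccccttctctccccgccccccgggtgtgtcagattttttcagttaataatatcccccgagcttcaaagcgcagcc
Astn1, chr1:158362054-158362303, plus strand: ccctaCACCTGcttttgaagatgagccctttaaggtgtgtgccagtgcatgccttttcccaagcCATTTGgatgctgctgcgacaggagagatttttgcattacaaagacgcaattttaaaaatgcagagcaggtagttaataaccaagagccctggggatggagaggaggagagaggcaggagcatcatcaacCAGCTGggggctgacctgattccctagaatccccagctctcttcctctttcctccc
Adcy1, chr11:7063183-7063432, plus strand: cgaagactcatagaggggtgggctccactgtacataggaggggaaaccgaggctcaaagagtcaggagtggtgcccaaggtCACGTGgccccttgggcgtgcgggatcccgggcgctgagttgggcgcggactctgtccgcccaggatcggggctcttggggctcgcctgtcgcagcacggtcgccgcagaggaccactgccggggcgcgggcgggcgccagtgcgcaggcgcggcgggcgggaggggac
Neurod1, chr2:79456637-79456886, minus strand: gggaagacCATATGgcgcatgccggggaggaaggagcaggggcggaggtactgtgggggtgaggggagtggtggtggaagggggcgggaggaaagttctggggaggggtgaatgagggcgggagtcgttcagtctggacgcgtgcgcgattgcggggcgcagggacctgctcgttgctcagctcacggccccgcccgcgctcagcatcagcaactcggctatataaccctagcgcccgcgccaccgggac
Of the members, 26 had an upstream stretch in the table, and the 20 with 1 start were searched. An E-box was present in 17 of these 20, against 66.2% of all 32851 stretches of the same length. A GC box (GGGCGG on either strand) was present in 10 of the 20, against 32.7% of all stretches. Adcy1 held 3 GC boxes, Neurod1 4 and Mycn 2, while these letters were not in the windows of Sox4 and Astn1. Such matches describe the letters of these windows and no binding.

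The members were first set against the tissue, as a check of the name. In +/+ mice 22 of 29 tested members were higher in cerebellum than in forebrain and 5 were lower, where 32.4% of all probe sets were higher and 25.8% lower. Cbln3, a secreted cerebellin of mature granule cells, had +/+ signals of 4508 to 6706 in cerebellum and 4.49 to 179 in forebrain, where 8 of 9 arrays were at 27.6 or lower (adjusted p = 2.16e-16). Fat2, a giant cadherin of parallel fibres, averaged 1004 in cerebellum and 11.8 in forebrain. En2, the engrailed factor of the midbrain and cerebellum, had 1142 in cerebellum and 24.7 in forebrain. Such dim forebrain signals may be background, so no size or rank is read from these 3 differences. Neurod1, needed for granule cells to differentiate and survive, had 5545 in cerebellum and 218 in forebrain. Cbln1, the cerebellin that parallel fibres release at their synapses, had 4766 in cerebellum and 233 in forebrain. Those higher in cerebellum included all 4 tested mature genes, both late genes and all 4 Zic genes.

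**Figure D1:**
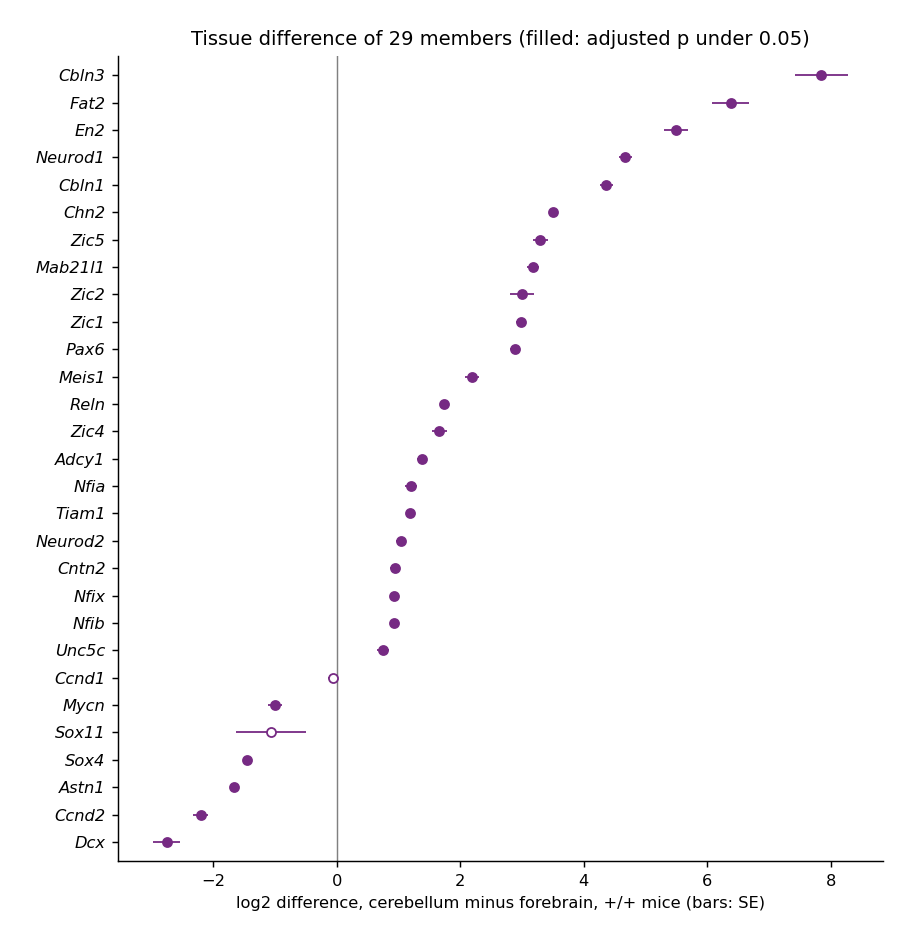
Log2 difference between cerebellum and forebrain in +/+ mice for 29 members, with SE bars; a point to the right of 0 is higher in cerebellum and a filled point passed the test. Neurod1 lies at 4.67 and Dcx at -2.76, and the points of Cbln3, Fat2 and En2 rest on dim forebrain signals that may be background.

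The 5 members that were lower in cerebellum came from the identity, migration and immature groups. They were Dcx, the microtubule protein doublecortin, Ccnd2, a D-type cyclin, Astn1, the neuron-glia adhesion protein of migrating neurons, Sox4, a SoxC factor of newborn neurons, and Mycn, the Myc factor driven by Sonic hedgehog in progenitors. Sox4 had 221 in +/+ cerebellum and 614 in +/+ forebrain (log2 difference -1.46, SE 0.07), and Astn1 had 395 in cerebellum and 1253 in forebrain (-1.66, SE 0.06). Ccnd1 (-0.06) and Sox11 (-1.07) did not pass, and Cntn2, the other immature gene tested, was higher in cerebellum (0.95). Among the 3 +/+ cerebellum groups limma's F test called 0 of 30 members, where it called 0.881% of all probe sets. At an unadjusted p under 0.05 it gave 4 of 30 members and 10.2% of all probe sets.

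In stg cerebellum 6 of 30 members were called, where 1.3% of all probe sets were called. Sox4, Mycn and Astn1 rose, and Adcy1, En2 and Tiam1 fell. Of all probe sets, 0.525% rose and 0.777% fell. The median change over the 30 members was 0.01, as over all probe sets, and 15 members lay above 0. In tg cerebellum 0 of 30 members passed in limma, where 0.574% of all probe sets did, and 5 had an unadjusted p under 0.05, against 7.28% of all probe sets. With array weights Sox4 passed there (0.44, adjusted p = 0.0304). In lh cerebellum Tiam1 was the 1 member called, and it fell, where 0.155% of all probe sets were called. The 3 lines had no arrays in common, but the fit shared their estimate of spread.

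**Figure D2:**
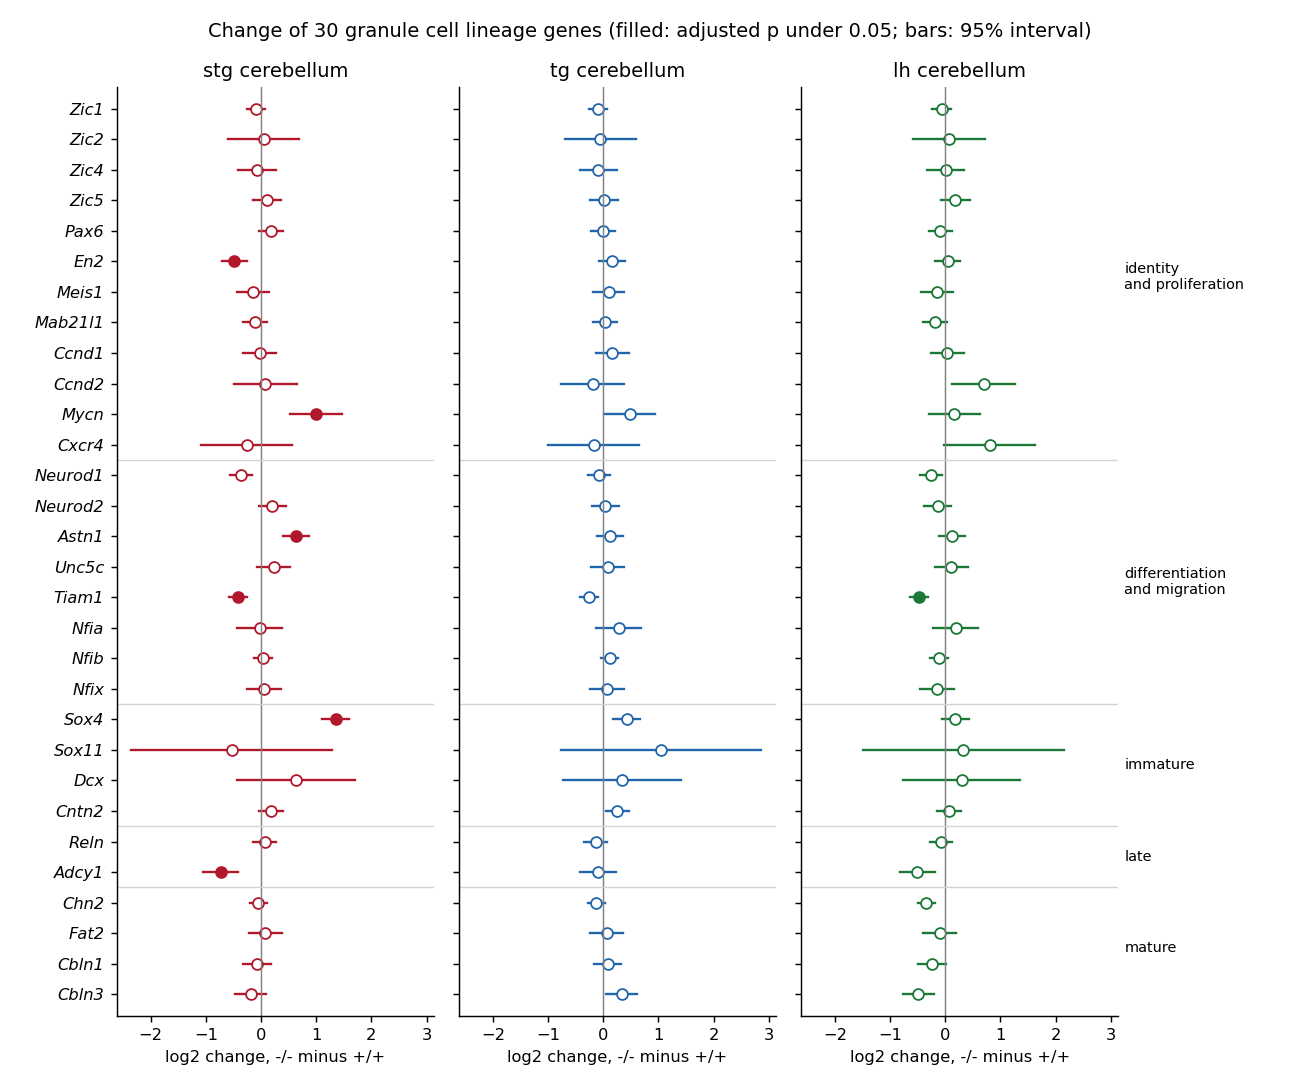
Log2 change (-/- minus +/+) in the cerebellum of each line for the 30 tested members, grouped by stage, with 95% intervals from limma; filled points passed an adjusted p of 0.05. In stg 6 points are filled, in tg none and in lh that of Tiam1, and the widest bars belong to the dim Sox11 and Dcx.

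Sox4 had the smallest adjusted p of the members in stg. It keeps newly born neurons in their immature program together with Sox11, and its level is known to fall as neurons mature. Its signals in cerebellum were 584, 505 and 700 in stg-/-, against 230, 240 and 219 in stg+/+. Every stg-/- array was above every other cerebellum array of the study. The log2 change was 1.35 (SE 0.12, 95% interval 1.11 to 1.60, adjusted p = 2.66e-06). In tg the signals were 305, 331 and 289 in tg-/-, against 232, 225 and 227 in tg+/+, a change of 0.43 that did not overlap but missed the threshold (adjusted p = 0.147). In lh they were 214, 259 and 229 in lh-/-, against 191, 212 and 213 in lh+/+, a change of 0.18 without overlap (adjusted p = 0.784).

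The effect on Sox4 differed among lines by the F test (adjusted p = 0.00363), and Sox4 was the 1 member of 30 for which it did, where 0.315% of all probe sets were called. The stg effect exceeded the mean of the tg and lh effects by 1.05 (SE 0.14, adjusted p = 0.0015), again for 1 of 30 members and 0.278% of all probe sets. With a block for the replicate number in every line, En2, Astn1 and Adcy1 joined Sox4 in the test of stg against the others, 4 members where 2.1% of all probe sets were called. In the F test En2, Astn1, Adcy1 and Cbln3 joined it, 5 members where 1.78% of all probe sets were called. Every same-numbered pair in stg correlated in its deviations above the limit of 0.1, so only stg was read as paired. The lowest pair was 0.0404 in tg and 0.0948 in lh, below that limit. In lh each -/- array still correlated best with the +/+ array of its own number. Without the block, the stg effect on Sox4 exceeded the tg effect by 0.93 and the lh effect by 1.17 (SE 0.16 each). All 5 tested Sox4 probe sets were called in stg, with changes from 1.35 to 2.37, and all 5 were above 0 in tg and in lh without a call. The test of stg against the other lines passed for the brightest probe set and missed for the 4 dimmer ones, with adjusted p from 0.116 to 0.445.

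**Figure D3:**
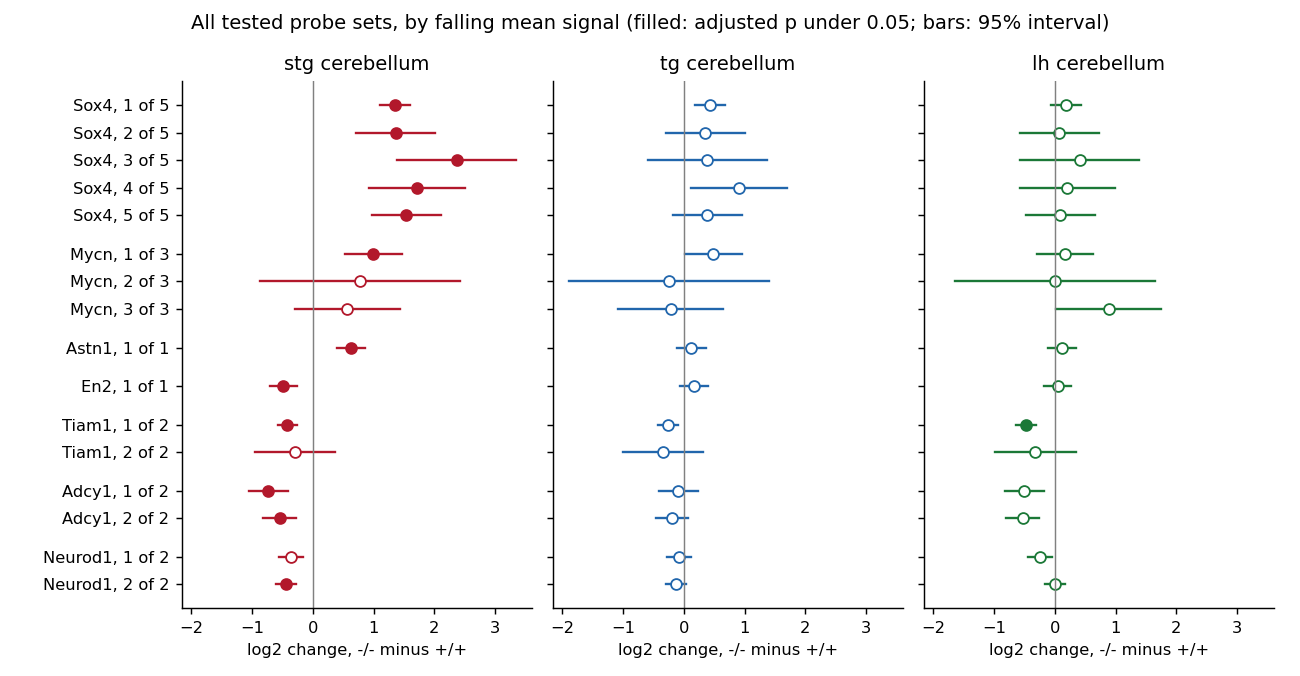
Log2 change with 95% interval for every tested probe set of 7 members, numbered by falling mean signal within a gene, in the cerebellum of the 3 lines; filled points passed an adjusted p of 0.05. The 5 Sox4 probe sets lie between 1.35 and 2.37 in stg, and both probe sets of Adcy1 lie below 0 in each line.

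Among the identity and proliferation genes, 1 rose and 1 fell in stg, and 10 of 12 did not pass. Mycn, which drives progenitor division, had signals of 107, 88.8 and 83.8 in stg-/-, against 56.7, 56.6 and 28.2 in stg+/+. Its change was 0.99 (SE 0.22, adjusted p = 0.0281). The groups did not overlap, and stg+/+ replicate 3 lay below the other arrays of its group. The call was lost without stg+/+ replicate 3 (0.68, adjusted p = 0.131), without stg-/- replicate 1 (0.89, adjusted p = 0.127), 2 (1.02, adjusted p = 0.0684) or 3 (1.06, adjusted p = 0.0572). The other Mycn probe sets, both dim, were at 0.78 and 0.57 in stg without passing. In tg Mycn had 80.4, 78.0 and 74.7 in tg-/-, against 62.0, 56.4 and 46.8 in tg+/+, a change of 0.48 (adjusted p = 0.656), and in lh it was at 0.16.

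En2 patterns the cerebellum and stays on in granule cells. It had signals of 960, 787 and 891 in stg-/-, against 1261, 1108 and 1324 in stg+/+, without overlap. Its change was -0.48 (SE 0.11, adjusted p = 0.0297), against 0.16 in tg and 0.04 in lh. The stg effect minus the mean of the others was -0.59 and missed the threshold (adjusted p = 0.076), but passed with the replicate number as a block (adjusted p = 0.0122). The call in stg was lost without stg-/- replicate 2 (-0.41, adjusted p = 0.14) or 3 (-0.50, adjusted p = 0.0826) and without stg+/+ replicate 1 (-0.46, adjusted p = 0.122) or 3 (-0.43, adjusted p = 0.14).

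The other 10 of this group lay between -0.26 (Cxcr4) and 0.19 (Pax6) in stg. Zic1, the zinc finger factor that marks granule cells throughout life, had a change of -0.09 in stg, -0.09 in tg and -0.07 in lh, with 95% intervals that reached from -0.26 to 0.10 over the 3 lines. Its signals were 6065, 5710 and 5732 in stg-/-, against 6498, 6389 and 5802 in stg+/+. Zic2, Zic4 and Zic5, of the same family, lay between -0.09 and 0.19 over the 3 lines. Pax6, the paired-box factor of the rhombic lip, was at 0.19, -0.0048 and -0.09 in stg, tg and lh. Meis1 (-0.14, 0.10 and -0.16) and Mab21l1 (-0.11, 0.04 and -0.18) were likewise not called in any line. Of 3 Meis1 probe sets 1 was above 0 in stg, without a call. It had 228, 211 and 251 in stg-/-, against 200, 189 and 193 in stg+/+, without overlap. The cyclins were not called either: Ccnd1, the Sonic hedgehog target, was at -0.02, 0.16 and 0.03, and Ccnd2 at 0.08, -0.19 and 0.69. In lh all 5 Ccnd2 probe sets lay between 0.63 and 1.08, with adjusted p from 0.249 to 0.779. In stg they lay between -0.40 and 0.21, with 3 above 0. Cxcr4, the chemokine receptor that holds progenitors at the surface, was dim, at 20.1 to 23.9 in stg-/- and 14.3 to 43.4 in stg+/+.

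Among the 8 differentiation and migration genes, Astn1 rose and Tiam1 fell in stg. Astn1 had signals of 665, 621 and 616 in stg-/-, against 413, 429 and 386 in stg+/+. The change was 0.63 (SE 0.11, adjusted p = 0.00483). The 3 stg-/- arrays lay above all other cerebellum arrays of the study. In tg it had 419, 387 and 389 in tg-/-, against 398, 356 and 344 in tg+/+ (0.12, adjusted p = 0.952), and in lh 495, 421 and 411 in lh-/-, against 480, 350 and 396 in lh+/+ (0.12, adjusted p = 0.886). The stg effect exceeded the mean of the others by 0.51, which missed the threshold (adjusted p = 0.152) and passed with the replicate block (adjusted p = 0.0196). The gene had 1 tested probe set, and its call in stg held under all 10 alternatives and with each of the 18 arrays left out.

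Tiam1, a Rac exchange factor of migrating and synapse-forming neurons, was lower in all 3 lines without overlap. Its signals were 1062, 1038 and 1059 in stg-/-, against 1356, 1453 and 1417 in stg+/+ (-0.42, SE 0.08, adjusted p = 0.00586). They were 1210, 1231 and 1277 in tg-/-, against 1440, 1423 and 1591 in tg+/+ (-0.26, adjusted p = 0.218). They were 1181, 1281 and 1087 in lh-/-, against 1649, 1666 and 1601 in lh+/+ (-0.47, SE 0.08, adjusted p = 0.0115). Its mean effect over the lines was -0.38 (SE 0.04, adjusted p = 7.22e-05). In lh the call was lost without lh-/- replicate 1 (-0.47, adjusted p = 0.05004) or 3 (-0.41, adjusted p = 0.0792) and without lh+/+ replicate 2 (-0.46, adjusted p = 0.0573). The dim second probe set lay at -0.29, -0.34 and -0.32 in stg, tg and lh, and none of these passed.

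**Figure D4:**
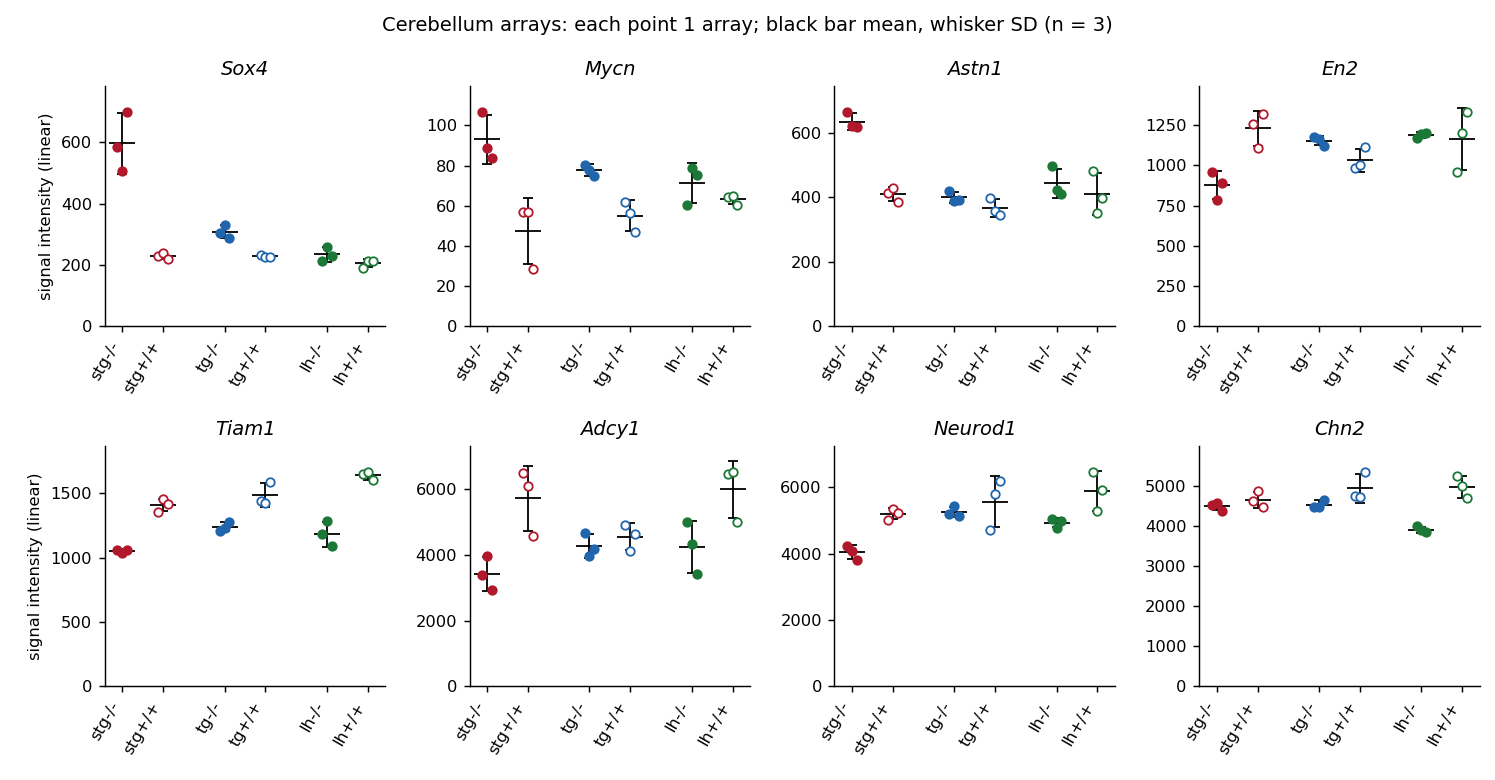
Signal intensity on each cerebellum array for 8 members, -/- left of +/+ within each line, with mean and SD (n = 3). Sox4 in stg-/- stands at 505 to 700 above all other groups, and Tiam1 in each -/- group lies below its +/+ group.

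Neurod1 had signals of 4223, 4072 and 3813 in stg-/-, against 5013, 5352 and 5228 in stg+/+, without overlap. Its change of -0.37 (SE 0.10) missed the threshold (adjusted p = 0.0699). Its other probe set, with 3340, 3464 and 3276 in stg-/- against 4492, 4365 and 4900 in stg+/+, passed at -0.45 (adjusted p = 0.00489). In stg the arrays that share a number were paired in their deviations. A block for that number brought the first probe set past the threshold as well (adjusted p = 0.0131). With that block 7 of 30 members were called in stg, the 6 named and Neurod1, where 3.77% of all probe sets were called. In tg Neurod1 was at -0.08 and in lh at -0.25, with neither passing. The other Neurod1 probe set did not share the fall in lh, with averages of 4597 ± 320 in lh-/- and 4596 ± 306 in lh+/+ (SD, n = 3). Neurod2, a relative of Neurod1 in differentiating neurons, was at 0.20 in stg, 0.04 in tg and -0.13 in lh.

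The remaining genes of the group were not called in any line. Unc5c, a netrin receptor that bounds the migration of granule cells, had 524, 505 and 499 in stg-/-, against 486, 487 and 347 in stg+/+ (0.23, adjusted p = 0.63). Nfia, Nfib and Nfix, the nuclear factor I proteins that time granule cell differentiation, were at -0.03, 0.04 and 0.06 in stg, 0.28, 0.12 and 0.07 in tg, and 0.19, -0.12 and -0.14 in lh. Nfix and the gene mutated in tg, Cacna1a, both lie on chromosome 8, with 4 protein-coding genes between them in GRCm38.p6. None of the 4 Nfix probe sets was called in tg. In stg they lay between -0.43 and 0.06, with 3 above 0. The 5 Nfia probe sets lay between -0.32 and 0.27 in stg, with 3 above 0. All 7 Nfib probe sets were above 0 in stg, from 0.04 to 0.56, and none was called. The second brightest had 993, 881 and 1057 in stg-/-, against 706, 822 and 756 in stg+/+, without overlap.

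Of the late genes, Adcy1 fell in stg. It encodes a calcium-stimulated adenylyl cyclase, enriched in granule cells. Its signals were 3392, 3950 and 2914 in stg-/-, against 6470, 6076 and 4581 in stg+/+, without overlap. The change was -0.73 (SE 0.15, adjusted p = 0.0163). The call was lost without stg-/- replicate 1 (-0.73, adjusted p = 0.0561) or 3 (-0.63, adjusted p = 0.106) and without stg+/+ replicate 1 (-0.64, adjusted p = 0.108) or 2 (-0.68, adjusted p = 0.073). Its other probe set was called too, at -0.55 (adjusted p = 0.0386). In lh it had 4983, 4318 and 3412 in lh-/-, against 6440, 6512 and 4996 in lh+/+ (-0.50, adjusted p = 0.292), and in tg it was at -0.09. Over the lines its mean effect was -0.44 (SE 0.09, adjusted p = 0.0102). Reln, the secreted guide of Purkinje cell placement that granule cells release, had 3295, 2940 and 2843 in stg-/-, against 2878, 3012 and 2766 in stg+/+ (0.07), and was at -0.14 in tg and -0.08 in lh.

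The mature genes were then set against the immature ones. Without the replicate block, none of the 4 tested mature genes was called in any line. With it Cbln3 and Chn2 fell in lh, where 0.781% of all probe sets were called. Only stg was read as paired, so block results in lh, and F tests with a block in every line, are an alternative alone. Cbln1 had 4234, 4552 and 4448 in stg-/-, against 4820, 5422 and 3798 in stg+/+, and was at -0.07, 0.08 and -0.24 in stg, tg and lh. Cbln3 was at -0.18, 0.34 and -0.49. In tg it had 6542, 5499 and 6061 in tg-/-, against 5155, 4618 and 4508 in tg+/+, and in lh 3948, 4564 and 4029 in lh-/-, against 6706, 6261 and 4789 in lh+/+. The groups of both lines were apart, in opposite directions. Without the block neither change passed (adjusted p = 0.487 in tg and 0.221 in lh), nor did the F test among lines (adjusted p = 0.153). With the block the change in lh passed (adjusted p = 0.0129), as did the F test (adjusted p = 0.0046). Fat2 was at 0.08, 0.06 and -0.10.

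Chn2, a GTPase-activating protein for Rac, had 3988, 3889 and 3837 in lh-/-, against 5237, 4983 and 4682 in lh+/+. Its change of -0.35 (SE 0.07) missed the threshold in lh (adjusted p = 0.0656), as did its other probe set at -0.41 (adjusted p = 0.0801). The mean of both probe sets passed (-0.38, adjusted p = 0.0177). With the block, an alternative alone in lh, the first probe set passed as well (adjusted p = 0.00855). In stg it was at -0.05 and in tg at -0.12. All 4 mature genes were below 0 in lh, 3 were in stg and 1 was in tg.

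Of the 4 tested immature genes Sox4 was the 1 called, in stg. Cntn2, the axonal adhesion molecule TAG-1 of young granule cells, had 465, 555 and 538 in stg-/-, against 491, 464 and 421 in stg+/+ (0.18). In tg it had 495, 556 and 522 in tg-/-, against 461, 424 and 429 in tg+/+ (0.26, adjusted p = 0.492), and in lh it was at 0.07. Its 4 probe sets did not share 1 direction in any line. Dcx and Sox11 were near the floor and poorly measured. Dcx had 33.8, 38.6 and 33.8 in stg-/-, against 35.8, 50.9 and 4.14 in stg+/+, and Sox11 had 78.4, 9.26 and 1.36 in stg-/-, against 52.9, 28.7 and 4.39 in stg+/+. Their standard errors were 0.51 and 0.87 on the log2 scale.

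The median change of the mature genes was -0.06 in stg, 0.07 in tg and -0.29 in lh. That of the immature genes was 0.41, 0.38 and 0.24, and 0.18, 0.34 and 0.30 without Sox4. The medians over all probe sets were 0.01, -0.01 and 0.02. Mature minus immature thus stood at -0.47 in stg, -0.31 in tg and -0.53 in lh. In stg the value rested on single libraries and dim genes: it was -0.08 without stg+/+ replicate 3, and -0.68 without stg+/+ replicate 2. It was -0.82 under the stricter filter, at the 60th percentile, and -0.24 without a filter. Taken array by array, as the mean log2 deviation of the mature genes from the line's +/+ mean, minus that of the immature genes, it was -0.94, -0.35 and -0.11 in stg-/-, against -0.44, -0.26 and 0.69 in stg+/+, with overlap. In tg it was -0.31, -0.58 and -0.40 in tg-/-, against -0.26, 0.27 and -0.02 in tg+/+, without overlap. In lh it was -0.30, -0.52 and -0.72 in lh-/-, against 0.46, -0.15 and -0.31 in lh+/+, with overlap. Dim genes weighed in tg and lh too. There the immature median without Sox4 was the change of Dcx (0.34 in tg and 0.30 in lh, SE 0.51). Sox11, also dim, had the largest immature change in tg (1.05, SE 0.87). These medians over 4 and 4 genes are a description and were not tested.

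Over the 3 lines together, 7 of 30 members were called for the mean effect, where 1.97% of all probe sets were. Such a mean can pass without a like effect in each line. In stg, tg and lh Sox4 was at 1.35, 0.43 and 0.18 and Astn1 at 0.63, 0.12 and 0.12. Tiam1 was nearer to even, at -0.42, -0.26 and -0.47. Sox4 (0.65, adjusted p = 1.71e-05), Mycn (0.55, adjusted p = 0.031) and Astn1 (0.29, adjusted p = 0.0223) were higher in -/-. Tiam1 (-0.38), Adcy1 (-0.44), Neurod1 (-0.23, adjusted p = 0.0338) and Chn2 (-0.17, adjusted p = 0.0412) were lower. The count was 3 without tg+/+ replicate 2 or 3 and 4 without tg-/- replicate 1 or 3 or lh-/- replicate 2 or 3. Tiam1, Adcy1 and Sox4 were called whichever array was left out. Of 18 fits with an array left out, Neurod1 kept its call in 4, Chn2 in 3 and Mycn in 9. Neurod1 and Chn2 also lost it without a filter, with quantile normalization and without an intensity trend. Groups without overlap were seen in 10 of 30 members in each line: 5 higher and 5 lower in stg, 8 higher and 2 lower in tg, and 2 higher and 8 lower in lh. Over all probe sets 15.6%, 14% and 12.7% had no overlap in stg, tg and lh.

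In forebrain none of the 27 tested members was called by limma in stg, tg or lh, where 0.0111%, 0.189% and 0.0148% of all probe sets were called. At an unadjusted p under 0.05 there were 0 members in stg, 1 in tg and 1 in lh, against 2.55%, 5.68% and 3.87% of all probe sets. Sox4 had 539, 547 and 718 in stg-/- forebrain, against 547, 566 and 600 in stg+/+, and the stg-/- cerebellum arrays, at 505 to 700, overlapped these. The stg effect on Sox4 was larger in cerebellum than in forebrain by 1.29 (SE 0.17, adjusted p = 3.81e-05). For Astn1, with 1181, 1295 and 1128 in stg-/- forebrain against 1353, 1315 and 1194 in stg+/+, the difference between tissues was 0.73 (SE 0.15, adjusted p = 0.015). These were the 2 of 29 members called for that difference in stg, where 0.248% of all probe sets were. Astn1 lost that call without stg-/- replicate 1 or stg+/+ replicate 3 of cerebellum, or stg-/- replicate 3 or stg+/+ replicate 2 of forebrain, the forebrain numbers being names only. In tg and lh 0 of 29 were called by limma, against 0.0259% and 0.0111% of all probe sets, with 3 and 4 members at an unadjusted p under 0.05, against 3.51% and 4.88% of all probe sets. For Mycn (0.99, adjusted p = 0.235), Adcy1 (-0.70, adjusted p = 0.17) and Tiam1 (-0.34, adjusted p = 0.366) the stg difference between tissues did not pass.

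Other genes of the same biology were read from lists chosen with earlier results of these data known. They were counted in the same way and are no independent support. Of 16 mature granule cell genes that are not members, 5 fell and none rose in stg, where 0.777% of all probe sets fell. With the block 8 fell, where 3.77% of all probe sets were called in either direction. They were Car4 (-1.04, adjusted p = 0.00012), a carbonic anhydrase, Grm4 (-0.66, adjusted p = 0.00553), the glutamate receptor of parallel fibre terminals, Kcnd2 (-0.58, adjusted p = 0.00166), a potassium channel subunit, Cadps2 (-0.57, adjusted p = 0.00191), which acts in the release of Bdnf, and Gabra6 (-0.41, adjusted p = 0.0129), the GABA receptor subunit of granule cells. Car4 had 481, 551 and 611 in stg-/-, against 1178, 1021 and 1177 in stg+/+, and Grm4 613, 728 and 728 in stg-/-, against 1050, 1190 and 1023 in stg+/+. Gabra6 lost its call without stg-/- replicate 1 or stg+/+ replicate 1 or 2 (adjusted p = 0.0558 to 0.0574), and the other 4 kept theirs whichever array was left out. Gabra6 averaged 6699 in tg-/- against 8463 in tg+/+, and 6357 in lh-/- against 8152 in lh+/+, without overlap and without a call. The median over the 16 was -0.34 in stg, -0.08 in tg and -0.24 in lh. Their summed signal was 31612 to 32682 in stg-/- and 36010 to 40622 in stg+/+. It was 35450 to 39430 in tg-/- and 40936 to 44520 in tg+/+. In lh it was 34254 to 36534 in lh-/- and 41711 to 44057 in lh+/+. These sums did not overlap within any line. Nor did the sums of the netrin and chemokine guidance genes, higher in each -/- group, and of the cerebellin partners, lower in each. In stg the former were 1446 to 1483 in stg-/- and 1138 to 1401 in stg+/+. The latter were 2344.3 to 2500.5 in stg-/- and 2880.9 to 3010.8 in stg+/+. Of the 16 mature genes Calb2, the calretinin gene, was the 1 called in lh. It had 1572, 1670 and 1165 in lh-/-, against 3117, 2620 and 2385 in lh+/+ (-0.89, limma adjusted p = 0.0112). Its call was lost without lh+/+ replicate 1 (adjusted p = 0.0553) or lh-/- replicate 3 (adjusted p = 0.0769). In tg limma called 0 of the 16. At an unadjusted p under 0.05 there were 9 in stg, 4 in tg and 9 in lh. The shares over all probe sets were 10.7%, 7.28% and 7.62%.

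Of 13 tested genes of Sonic hedgehog signalling and the cell cycle limma called 0 in each line. At an unadjusted p under 0.05 there were 3, 1 and 1 in stg, tg and lh. The shares over all probe sets, here and for the lists below, were 10.7%, 7.28% and 7.62%. The median change over the 13 was 0.10 in stg, -0.03 in tg and -0.06 in lh. Ptch1, the hedgehog receptor and target, was at -0.0015, -0.13 and -0.16, and Gli1, the pathway's readout, at 0.0008, -0.19 and 0.20. The proliferation markers Mki67, Top2a and Cdk1 stayed below the filter, with mean signals of 5.91, 20.1 and 13.5. Of 6 reelin pathway genes Dab1, the adaptor that receives the reelin signal, fell in stg, with 244, 238 and 240 in stg-/-, against 365, 379 and 383 in stg+/+ (-0.64, adjusted p = 0.00185). Of 7 netrin and chemokine guidance genes limma called 0, with 2 at an unadjusted p under 0.05 in each line. Of 3 tested cerebellin partners it called 0, with 1 such gene in stg. Of 4 tested genes of activity and Bdnf, Bdnf (-1.48, adjusted p = 0.00437) and Camk4 (-0.76, adjusted p = 8.79e-06), a kinase of granule cell nuclei, fell in stg, and Camk4 fell in lh (-0.62, adjusted p = 0.000459).

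Markers of other cells moved in part with genotype, and their part in these results was not tested. Of 10 tested Purkinje cell markers 9 were above 0 in stg, with 0 called by limma and 6 at an unadjusted p under 0.05, and their summed signal was 45304 to 50418 in stg-/- and 35627 to 44098 in stg+/+. With the block 7 of them rose, where 3.77% of all probe sets were called in either direction. At an unadjusted p under 0.05 the share over all probe sets was 10.7% in stg, 7.28% in tg and 7.62% in lh. These shares stand beside the counts of the lists below too. In tg 7 and in lh 3 of the 10 were above 0. Of 10 Bergmann glia and astrocyte markers Gfap rose in stg (0.93, adjusted p = 0.0283; lost without stg-/- replicate 2, stg+/+ replicate 1 or stg+/+ replicate 3, adjusted p = 0.0844 to 0.162) and Fabp7 fell in tg (-1.23, adjusted p = 0.0111). Fabp7 lost its call without tg-/- replicate 2 or 3 or tg+/+ replicate 2 or 3 (adjusted p = 0.0542 to 0.0864). The summed signal of that list was 19612 to 20861 in stg-/- and 18296 to 19044 in stg+/+, 18035 to 20267 in tg-/- and 18514 to 19107 in tg+/+, and 18873 to 19677 in lh-/- and 16800 to 18173 in lh+/+, without overlap in stg and lh. All 6 tested microglia markers and all 5 choroid plexus markers were above 0 in each line. Limma called none of these in a line, and 1 or 2 of the microglia markers and at most 1 of the choroid plexus markers had an unadjusted p under 0.05. The microglia sum was 1023 to 1223 in stg-/- and 965 to 1052 in stg+/+, 1218 to 1436 in tg-/- and 981 to 1175 in tg+/+, and 1238 to 1256 in lh-/- and 945 to 1005 in lh+/+, without overlap in tg and lh. The choroid plexus sum was 12141 to 15811 in stg-/- and 3772 to 13516 in stg+/+, 11819 to 14522 in tg-/- and 11634 to 12550 in tg+/+, and 10062 to 13965 in lh-/- and 7157 to 14275 in lh+/+. Among interneuron, unipolar brush cell, oligodendrocyte and forebrain neuron markers limma called none in any line, and at most 4 of a list (the interneuron markers in tg) had an unadjusted p under 0.05. The forebrain markers Emx1 and Tbr1 and the brainstem markers Hoxb3 and Hoxb5 stayed below the filter. Of the midbrain and brainstem list Th, which some Purkinje cells of calcium channel mutants express, rose in tg (4.15) and lh (3.42).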

How the data were processed

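Total RNA of cerebellum and forebrain was measured on 36 arrays in 12 groups of 3. The authors deposited 1 linear signal intensity for each probe set of an array. Which software made it was not given in the sources used here. Intensities share a scale, since their mean after trimming 2% at each end was 150 on every array. Detection calls were not used, and the number of arrays limits the precision.

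Values were transformed as log2 of signal plus 2.98, a constant set at the 10th percentile of the values, and changes of dim probe sets are understated for it. The 64 control probe sets were left out. A probe set was kept if its mean in a fit exceeded the 40th percentile. GEO's platform annotation gave the names, and only probe sets with 1 symbol (34958 of 45101) were named, since 932 had several and 9211 none. Limma (version 3.58.1, R 4.3.3) fitted group means with an intensity trend, over the 18 arrays of a tissue or all 36. Its two-sided p-values were adjusted by Benjamini-Hochberg over all 27022 probe sets of the fit. The F tests compared effects among lines, and the +/+ groups. The code was tested on simulated data. Upstream sequences are RefSeq's.

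The members and lists were chosen with earlier results of these data known. Named were all 33 members, the mutated genes and, of each further list, at most the 4 largest called changes in a line. Other probe sets were given for some members, not all, where these gave another call or sign. Gabra6, Ptch1, Gli1 and the markers of other cells and of proliferation were named after their values were seen. The labels tie no array to an animal, so p-values measure the spread between these samples, which may be technical. Same-numbered cerebellum arrays of -/- and +/+ correlated in their deviations by 0.156, 0.188 and 0.380 in stg, all above the limit of 0.1, so they were read as pairs, from the data and not the labels, and the numbers also go with sex. In tg and lh the lowest were 0.0404 and 0.0948, so there they were not. Alternatives were other filters, constants, quantile normalization, no trend, array weights, the replicate block, a line's 6 arrays alone, other probe sets of a gene, and each array left out.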

Additional observations from a re-analysis of the deposited data

Results flagged for a closer look

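Sox4 in cerebellum was singled out because its stg effect exceeded the mean of the tg and lh effects by 1.0484 on the log2 scale, tested as a difference between lines (adjusted p = 0.0015). The signals behind it were 584, 505 and 700 in stg-/-, against 230, 240 and 219 in stg+/+.

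Sox4 was also singled out because its stg effect in cerebellum exceeded that in forebrain by 1.2914, tested as a difference between tissues (adjusted p = 3.81e-05). In forebrain its stg change was 0.06. For Astn1 the same difference between tissues was 0.7281 (adjusted p = 0.015), with a stg change of -0.10 in forebrain.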

How the results depend on the processing

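Sox4 and Astn1 were called in stg cerebellum under every alternative tried and with each array left out, with changes from 1.23 to 1.67 and from 0.59 to 0.66. No called value reversed under any alternative, while 47 of 106 values that were not called changed sign under at least 1, so no direction is claimed for these. The count in stg cerebellum, 6 of 30, was 2 on the 6 arrays of the line alone, which has fewer degrees of freedom, 3 by the second probe set of each gene, where fewer genes are tested, and 3 to 7 with an array left out, the 3 without stg-/- replicate 3. The count in lh, 1, was 0 without an intensity trend, on the 6 arrays alone and by the second probe set, 2 by the mean of the probe sets (Adcy1, adjusted p = 0.0446, and Chn2, adjusted p = 0.0177, while Tiam1 was lost) and 0 to 1 with an array left out. In tg it was 1 with array weights against 0. The count for the mean effect, 7, was 4 without a filter, 4 without an intensity trend, 3 by the second probe set and 3 to 7 with an array left out. The counts for the difference between stg and the other lines and for the F test, 1 each, were 0 by the second probe set and 1 to 2 with an array left out, and the first of these tests gave 2 with array weights. The 2 members whose stg effect differed between tissues became 1 to 2. With the replicate number as a block, the paired analysis, 7 members passed in stg, 0 in tg and 4 in lh (0.781% of all probe sets), where Adcy1, Chn2 and Cbln3 joined Tiam1; the difference between stg and the others gave 4 and the F test 5. The same numbers in tg and lh rest on a hint from the data alone, since the pair with number 2 fell short, and in tg array 2 did not correlate best with its own number. Beyond these, the cause of the changes was not tested. Signals near the floor (Sox11, Dcx, Cxcr4, the other Mycn probe sets) limit what can be read of those genes.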
